A study of Mus musculus with 12 samples.

Results

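The CCN genes encode a small family of matricellular proteins, secreted proteins that sit in the extracellular matrix and act on cells rather than as scaffold. They bind integrins, heparan sulfate proteoglycans and growth factors, and so tune adhesion, TGF-beta, BMP, Wnt and Notch signalling around the cell that released them. Most members share the same modular build, with an IGF binding protein-like domain at the amino end followed by von Willebrand type C, thrombospondin and cystine knot domains, while CCN5 lacks the cystine knot. In mouse olfactory bulb (OB), CCN2 is known as a product of tufted cells that regulates the survival of newborn interneurons, and CCN1 and CCN2 are textbook targets of the Hippo pathway effectors YAP and TAZ.

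The 5 genes described here are Ccn1 (older symbol Cyr61), Ccn2 (Ctgf), Ccn3 (Nov), Ccn4 (Wisp1) and Ccn5 (Wisp2), of 19505 gene symbols on the array. Each was found under its current or older symbol and had 1 probeset, so no choice among probesets was needed, and all 5 were measured on all 12 arrays. The family was chosen by a measured value, since Ccn3 had one of the largest differences between Tg2576 and WT mice at 6 months in earlier results of these same data. That difference is therefore given below as a description with no test, and the other comparisons of Ccn3 that reuse the 6-month arrays are marked as such.

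RNA from the OB of female mice was measured on Affymetrix Mouse Clariom S arrays in 4 groups of 3 arrays. Tg2576 mice, at 2 months and at 6 months, overexpress human APP with the Swedish double mutation of familial Alzheimer's disease under the prion promoter. The WT groups are their littermates, also at 2 months and at 6 months, and all mice were on a C57BL/6/SJL background. The 12 arrays come from 12 mice, 3 in each group, so p-values measure the spread between mice. In whole OB tissue, fewer cells of a type and less RNA per cell cannot be told apart.

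Array medians over the gene probesets lay between 8.24 and 8.27 log2 units, and pairwise correlations of arrays between 0.978 and 0.995. The mean over markers of OB interneurons lay between 11.19 and 11.50 log2 units and that of mitral and tufted cell markers between 9.99 and 10.39. On 2 arrays, WT 6 months replicates 2 and 3, the spiked-in hybridization controls averaged 12.5 and 12.1 log2 units, against 11.3 to 11.7 on the other arrays. The WT age values of Ccn1, Ccn3 and Ccn4 and the 6-month genotype values of Ccn1 and Ccn3 are given below also without both. Other values that rest on these arrays are not. Leaving out both keeps 1 WT array at 6 months, whose spread is taken from the other groups. Calls over all probesets with age in WT OBs then numbered 160, against 387 with all arrays, and the gene lists below were not fitted again without them. A probeset was called where limma gave an unadjusted p under 0.01 together with a fold change above 1.3 or below 0.7, which are log2 limits of 0.38 and -0.51, the lower one being the stricter. After Benjamini-Hochberg adjustment over 22206 gene probesets, limma gave 0 probesets an adjusted p under 0.05 in each comparison except WT mice at 6 against 2 months, where 1 probeset (0.0045%), no CCN gene, passed. At an unadjusted p under 0.05, limma counted 1403 probesets between genotypes at 2 months and 1911 at 6 months, 1247 and 2667 with age in Tg2576 and WT mice, and 1268 for the difference between the genotype effects at the 2 ages.

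Ccn3, a regulator of Notch and integrin signalling first found as a gene overexpressed in nephroblastoma, was the member that differed most between samples. Its log2 intensities at 6 months were 10.19, 9.38 and 10.23 in Tg2576 OBs, against 8.70, 8.91 and 8.71 in WT OBs. Every Tg2576 array was above every WT array, and the WT arrays lay close together while Tg2576 replicate 2 was well below the other two. The means were 9.93 ± 0.48 in Tg2576 and 8.77 ± 0.12 in WT OBs (SD, n = 3 each), a log2 fold change of 1.16 (SE 0.22) or 2.24-fold. Counted from the highest log2 fold change down, with signs kept, it ranked 7 among the 22206 gene probesets in that comparison.

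At 2 months Ccn3 measured 10.08, 9.69 and 10.44 in Tg2576 OBs, against 9.81, 9.75 and 9.33 in WT OBs. The groups overlapped, since Tg2576 replicate 2 lay between the WT arrays. The means were 10.07 ± 0.38 in Tg2576 and 9.63 ± 0.26 in WT OBs (SD, n = 3 each). The log2 fold change of 0.44 (SE 0.22) did not pass the test, with a limma adjusted p of 0.809. Its 95% interval reached from -0.032 to 0.92, which includes 0. Leaving out single arrays gave values from 0.26, without Tg2576 2 months replicate 3, to 0.63, without replicate 2 of that group, and 0.29 without WT 2 months replicate 3, and none was called.

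**Figure D1:**
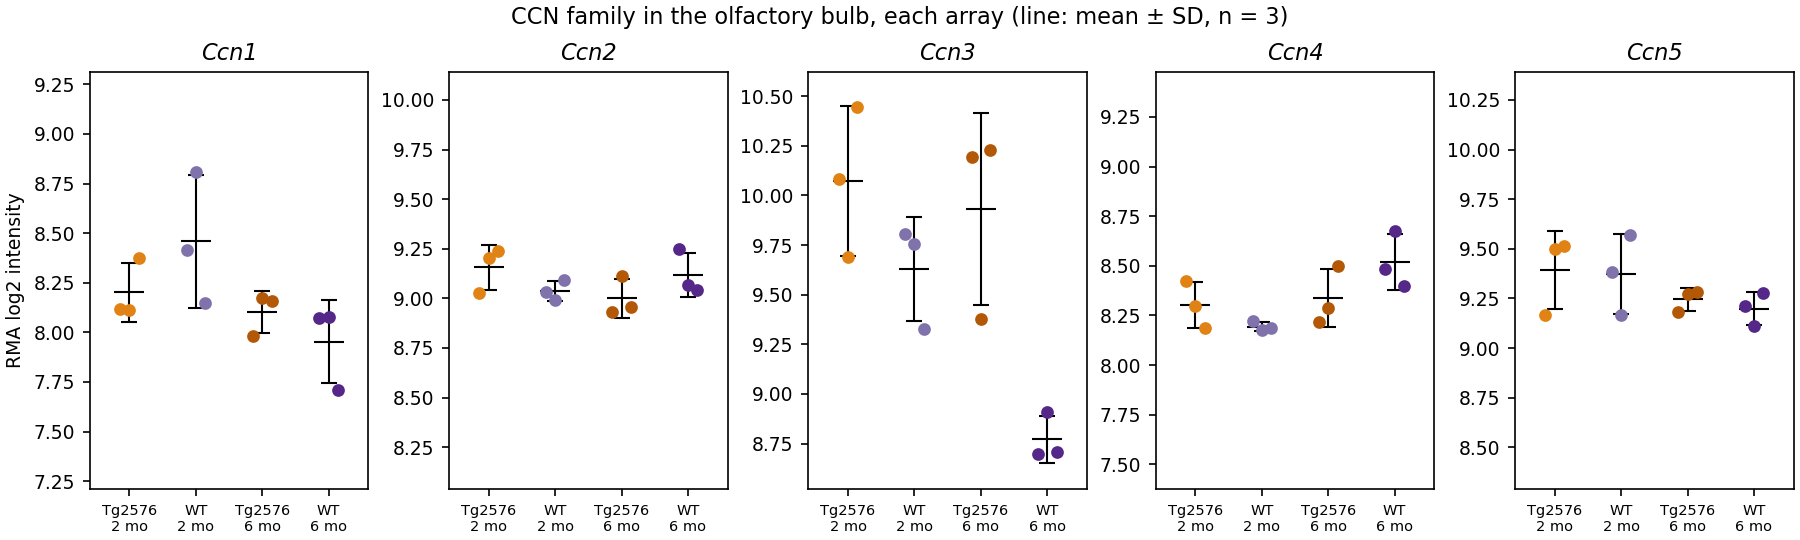
RMA log2 intensity (y axis, each panel on its own range of equal height) of the 5 CCN genes on each of the 12 arrays, by group on the x axis. Points are arrays and black lines the group mean ± SD (n = 3). The 3 WT arrays at 6 months sit between 8.70 and 8.91 for Ccn3, below all other arrays.

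With age the WT arrays, not the Tg2576 arrays, separated. In WT OBs Ccn3 averaged 8.77 ± 0.12 at 6 months and 9.63 ± 0.26 at 2 months (SD, n = 3 each), and no 6-month array reached the lowest 2-month array. This log2 fold change of -0.86 (SE 0.22) was called lower, with a limma adjusted p of 0.243. It shares the WT 6-month arrays with the difference for which the family was chosen and is not independent of it. In Tg2576 OBs the means were 9.93 ± 0.48 at 6 months and 10.07 ± 0.38 at 2 months (SD, n = 3 each). Their log2 fold change was -0.14 (SE 0.22, limma adjusted p = 0.953), with an interval of -0.62 to 0.34 that still holds part of the range seen in WT OBs.

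Ordered by group mean, Ccn3 was highest in Tg2576 OBs at 2 months, then Tg2576 at 6 months, WT at 2 months and WT at 6 months. Neighbours in that order overlapped in their arrays, except WT at 6 months, which stood below each of the others. The genotype effect at 6 months minus that at 2 months was 0.72 (SE 0.31), and ranged from 0.53 to 0.99 when single arrays were left out, the highest without Tg2576 6 months replicate 2. It includes the 6-month difference used to choose the family and is a description.

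Leaving out any single array left the 6-month Ccn3 difference between log2 1.01 and 1.44 and the WT age difference between -1.01 and -0.77, the second being called in 12 of 12 such fits. Both rest on the WT 6-month arrays that entered the choice of the family, so these fits are a description. With WT 6 months replicates 2 and 3 both left out, so that 1 WT array remained at 6 months, the 6-month value was 1.23 (SE 0.33), and the WT age value was -0.93 (SE 0.33) and was not called. With the hybridization controls as a covariate the values were 1.06 and -0.77, and the WT age value was not called.

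**Figure D2:**
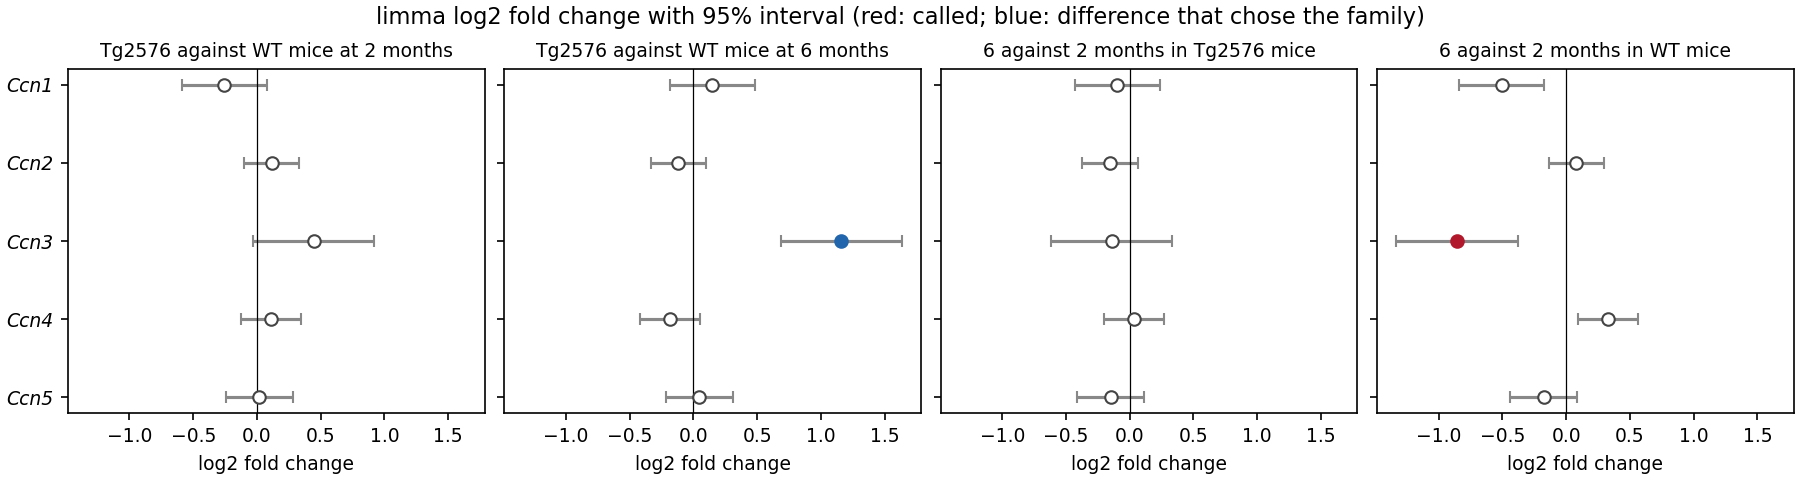
limma log2 fold change (x axis) with its 95% interval for each CCN gene in 4 comparisons; red points were called, and the blue point is the difference that chose the family. Ccn3 lies at 1.16 between genotypes at 6 months and at -0.86 with age in WT mice, and the other intervals between genotypes cross 0.

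Across the 12 arrays Ccn3 varied with the markers of oligodendrocytes, the myelin-forming glia. The mean over 8 of 9 listed markers that were measured ranged from 8.91 to 9.30 in Tg2576 OBs and from 8.83 to 8.85 in WT OBs at 6 months. At 2 months it ranged from 9.17 to 9.45 in Tg2576 and from 9.09 to 9.33 in WT OBs. The Tg2576 6-month array with the lowest Ccn3 was also the lowest of its group for these markers. Pearson's r with Ccn3 was 0.921 and Spearman's rho 0.895 over 12 arrays, and r was 0.875 over the 10 arrays left without those farthest from the median marker level, WT 6 months replicates 2 and 3. Within groups, after removing each group's mean, r over the 12 arrays was 0.876. All probesets of an array share its RNA and its hybridization, this list was the closest of 19 gene lists looked at, and the correlation is given as a description with no p.

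Single markers ranged in r with Ccn3 from 0.483 for Cnp to 0.889 for Mbp, the gene of myelin basic protein. At 6 months all 8 markers had log2 fold changes above 0 between Tg2576 and WT OBs, with a median of 0.30 against 0.0067 over all probesets, and 1 of them, Mbp at 0.55, was called, where 0.644% of all probesets were called higher. With age in WT OBs all 8 were below 0, with a median of -0.41, and 3 of them, Mbp, Mog and Cldn11, were called lower, where 0.293% of all probesets were. With the marker mean as a covariate, a fit added after the data were seen with the list closest to Ccn3, the Ccn3 difference at 6 months was 0.50 (SE 0.19). In the same fit the WT age value was -0.064 and the genotype value at 2 months 0.24. These values are a description, since the list was taken for its closeness to Ccn3 on the same arrays. The part of these cells in the Ccn3 values was not tested.

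**Figure D3:**
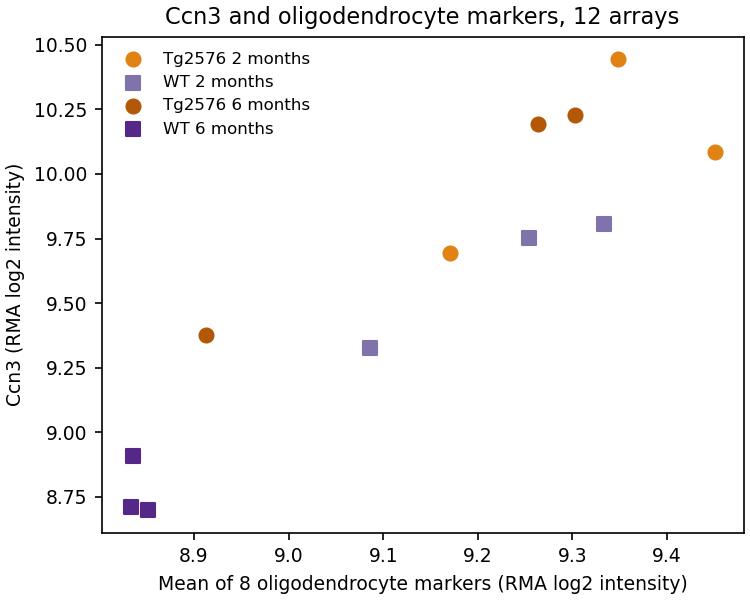
Ccn3 (y axis, RMA log2 intensity) against the mean of 8 oligodendrocyte markers (x axis, RMA log2 intensity), 1 point per array, circles for Tg2576 and squares for WT. The points rise together (r = 0.921), with the 3 WT 6-month arrays at the lower left.

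Other cell type markers moved with Ccn3 less closely. The astrocyte marker mean had r = 0.81 with it, the olfactory sensory neuron mean 0.62, and the OB interneuron mean -0.64. Olfactory sensory neuron markers were above 0 in 9 of 9 cases between Tg2576 and WT OBs at 6 months, with a median of 0.38 and 6 of 9 without overlap between groups, where 7.56% of all probesets were higher without overlap. By limma 0 of 9 were called and 0 of 9 had an unadjusted p under 0.05. With their mean as a covariate the Ccn3 difference at 6 months was 1.03. With the interneuron mean as a covariate it was 0.82, the difference at 2 months was 0.77 and called, and the WT age value was -0.062. Between Tg2576 and WT OBs at 2 months, markers of leptomeninges and fibroblasts, which contain several matrix genes, were above 0 in 12 of 12 cases. Their median was 0.40, and 3 of 12 were called higher, where 0.572% of all probesets were called in either direction. With the mean of these markers as a covariate the Ccn3 difference at 6 months was 1.14.

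Of the 10066 other probesets with 1 symbol and a mean above that of the median probeset, those most like Ccn3 over the 12 arrays were Gap43, Olfr316 and Lingo2, with r of 0.926, 0.922 and 0.904. Within groups the same r values were 0.824, 0.672 and 0.880. Between Tg2576 and WT OBs at 6 months, Gap43, the growth-associated protein of axons, had a log2 fold change of 0.47 (SE 0.12), Olfr316 one of 0.42 and Lingo2 one of 0.85 (SE 0.27). At 2 months their log2 fold changes were 0.12, 0.085 and 0.12. The 3 genes were picked for their likeness to Ccn3, so these values are a description.

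The other 4 CCN genes differed little between genotypes. At 6 months 1 of 5 members, Ccn3, was called, where 1.04% of all probesets were called in either direction and 0.644% higher, and 1 of 5 did not overlap between groups, where 14.8% of all probesets did not. At 2 months 0 of 5 were called by limma, where 0.572% of probesets were, 0 of 5 had an unadjusted p under 0.05, and 0 of 5 did not overlap, where 9.96% of probesets did not. The median log2 fold change over the 5 members was 0.046 at 6 months and 0.11 at 2 months, against 0.0067 and 0.0060 over all probesets. Because Ccn3 chose the family through the 6-month comparison, nothing is read from the count at that age.

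Ccn1, an integrin ligand and one of the growth-factor-inducible immediate early genes, measured 8.07, 8.08 and 7.71 log2 units at 6 months in WT OBs, against 8.42, 8.81 and 8.15 at 2 months. The groups did not overlap, though the lowest 2-month array was near the highest 6-month arrays. The means were 7.95 ± 0.21 at 6 months and 8.46 ± 0.33 at 2 months (SD, n = 3 each). Its log2 fold change of -0.50 (SE 0.16) had a limma adjusted p of 0.267, and its unadjusted p was under 0.01, but at 0.705-fold it just missed the fold limit of 0.7. It was called with a lower limit set at the inverse of 1.3, an alternative added after the data were seen. Dropping WT 2 months replicate 3, or either of WT 6 months replicates 1 and 2, turned it into a call, with values down to -0.66. Without WT 2 months replicate 2 the value was -0.33 and was not called, and without WT 6 months replicates 2 and 3 it was -0.39 and not called.

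In Tg2576 OBs Ccn1 measured 7.98, 8.17 and 8.16 at 6 months, against 8.12, 8.11 and 8.37 at 2 months. These arrays overlapped, and the log2 fold change was -0.098 (SE 0.16). Between genotypes Ccn1 differed by 0.15 (SE 0.16) at 6 months and by -0.26 (SE 0.16) at 2 months, neither past the test (limma adjusted p = 0.827 and 0.848), and by 0.031 at 6 months without those WT arrays. The difference between these effects was 0.41 (SE 0.22, adjusted p = 0.846 by limma).

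The RefSeq promoter table held 1 of the 5 members, Ccn1. Its 250 bases before the transcription start are shown because Ccn1 is described as a target of YAP with TEAD and as an immediate early gene, and the genes of both kinds were measured on the same arrays. They lie on the minus strand at chr3:145649986-145650235 (GRCm38.p6) and read 5′ to 3′, with a TEAD site and the core of a cAMP response element in capitals:
Ccn1: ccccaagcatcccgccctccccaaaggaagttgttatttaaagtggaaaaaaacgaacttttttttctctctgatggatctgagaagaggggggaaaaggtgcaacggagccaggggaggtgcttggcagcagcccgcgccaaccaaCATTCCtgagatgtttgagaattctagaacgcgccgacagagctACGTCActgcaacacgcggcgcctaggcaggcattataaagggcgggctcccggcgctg
The TEAD site, CATTCC, begins 103 bases before the start, and 12.6% of 32851 windows of this length hold it on either strand. The cAMP response element core, TGACGT, which reads ACGTCA on the strand shown, begins 59 bases before the start and is in 6.47% of windows. A TATA box with the letters TATAAA begins 25 bases before the start and such a match is in 12.4% of windows. The AP-1 site TGANTCA, found in 6.75% of windows, and the CArG box, found in 1.47%, had no match in these letters. Counted per gene, in any of its windows, the TEAD site was in 5 of 15 YAP and TAZ target genes and in 3 of 15 immediate early genes. The cAMP response element core was in 7 of 15 immediate early genes and in 1 of 15 YAP and TAZ target genes. The percentages above count single windows, so these gene counts are not set against them.

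Over the 12 arrays Ccn1 had r = 0.79 with the mean of YAP and TAZ target genes outside the CCN family and 0.59 with the mean of immediate early genes. Ccn2, the other textbook target, had r = -0.12 with the YAP and TAZ target mean. For Ccn3, Ccn4 and Ccn5 it was 0.69, -0.57 and 0.088. These r values are a description, and YAP and TAZ activity was not tested. In WT OBs 8 of 19 immediate early genes were called lower at 6 than at 2 months, where 0.293% of all probesets were, with a list median of -0.52, and among them were Fosb (-0.92) and Nr4a3 (-0.89). Of the 20 YAP and TAZ targets, 1 was called in that comparison, Gadd45b at -0.73, a stress-inducible gene. Ccn1 also varied against the OB interneuron markers, with r = -0.875. Their mean ranged from 11.41 to 11.50 at 6 months and from 11.19 to 11.35 at 2 months in WT OBs. With age in WT OBs 10 of 12 were above 0 and 2 were called higher. Of all 22206 probesets 387 (1.74%) were called in that comparison, only 65 of them lower. With that mean as a covariate, in a fit added after the data were seen, the WT age value of Ccn1 was 0.024. Of the gene lists looked at, this one had the r of largest size with Ccn1, and its WT ranges did not overlap between ages. The fit is therefore a description, and the part of these cells in the Ccn1 value was not tested. The probesets most like Ccn1 were Rhoc, Fabp7 and Pgs1, with r of 0.939, 0.918 and 0.913.

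Ccn4, a Wnt1-inducible member known from bone and fibrosis, measured 8.49, 8.68 and 8.40 in WT OBs at 6 months, against 8.22, 8.17 and 8.18 at 2 months. All 6-month arrays were higher, and the 2-month arrays lay within a narrow range. The means were 8.52 ± 0.14 at 6 months and 8.19 ± 0.024 at 2 months (SD, n = 3 each), a log2 fold change of 0.33 (SE 0.11). Its limma adjusted p was 0.287, and its unadjusted p was under 0.01, but at 1.25-fold it fell short of the fold limit. Of the fits leaving out single arrays it was called in that without WT 6 months replicate 3, at 0.39. Without WT 6 months replicates 2 and 3 it was 0.29 and not called.

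In Tg2576 OBs Ccn4 measured 8.22, 8.29 and 8.50 at 6 months, against 8.42, 8.30 and 8.19 at 2 months, with overlap and a log2 fold change of 0.032 (SE 0.11). Between genotypes it differed by -0.18 (SE 0.11, limma adjusted p = 0.666) at 6 months and by 0.11 (SE 0.11, limma adjusted p = 0.934) at 2 months. Ngfr, Zswim9 and Zfp518b were the probesets most like it, with r of 0.907, 0.900 and 0.897.

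With age in WT OBs, 1 of 5 members was called and it was lower, where 1.74% of all probesets were called and 0.293% lower. With the fold limit set aside, 3 of 5 members had a p under 0.01, where 3.42% of probesets did, and 3 of 5 did not overlap between ages, where 13.4% of probesets did not. Ccn3 and Ccn1 were lower and Ccn4 higher at 6 months. These counts include Ccn3, whose WT 6-month arrays also entered the difference that chose the family, so nothing is read from them. In Tg2576 OBs 0 of 5 members were called with age by limma, where 0.527% of probesets were, 0 of 5 had an unadjusted p under 0.05, and 0 of 5 did not overlap, where 14.2% of probesets did not. For the difference between the genotype effects 0 of 5 were called by limma, where 0.779% of probesets were. Ccn3, 1 of 5, had an unadjusted limma p under 0.05, where 1268 of 22206 probesets did. Its value includes the 6-month difference that chose the family and is a description. The 4 comparisons share arrays in pairs, so their values are not independent of each other.

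Ccn2, the connective tissue growth factor, was the least variable member. At 6 months it measured 8.93, 9.11 and 8.95 in Tg2576 OBs, against 9.25, 9.07 and 9.04 in WT OBs. At 2 months it measured 9.03, 9.20 and 9.24 in Tg2576 OBs, against 9.03, 8.99 and 9.09 in WT OBs. The groups overlapped at both ages. The log2 fold changes between genotypes were -0.12 (SE 0.10, interval -0.34 to 0.098) and 0.12 (SE 0.10, interval -0.10 to 0.33). Those with age were -0.16 in Tg2576 and 0.080 in WT OBs, and none passed the test. The microglial gene Fcrls was most like it with r = 0.938, followed by Rrp36 and Krtap9-3 at 0.833 and 0.819. The mean over the listed microglia markers went the other way, with r = -0.47 with Ccn2.

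Ccn5, the member without the cystine knot domain, measured 9.18, 9.27 and 9.28 at 6 months in Tg2576 OBs, against 9.21, 9.11 and 9.28 in WT OBs. At 2 months it measured 9.17, 9.50 and 9.51 in Tg2576 OBs, against 9.39, 9.17 and 9.57 in WT OBs. Both genotypes spread more at 2 months than at 6 months and overlapped at both ages. Its log2 fold changes between genotypes were 0.046 (SE 0.12, interval -0.22 to 0.31) at 6 months and 0.018 (SE 0.12, interval -0.24 to 0.28) at 2 months. With age they were -0.15 in Tg2576 and -0.18 in WT OBs, and none passed the test. Defb35, Sprr2i and Arhgap24 were most like it, with r of 0.913, 0.905 and 0.900.

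The SD over the 12 arrays was 0.60 for Ccn3 and 0.27 for Ccn1, above those of 99.7% and 90.9% of probesets. It was 0.16 for Ccn4, 0.15 for Ccn5 and 0.11 for Ccn2, the last above only 11.2% of probesets. Pairs of members did not move closely together, with r over 12 arrays from -0.55 for Ccn4 with Ccn5 to 0.47 for Ccn2 with Ccn5. Of 23 background probe sets, which range from 3.40 to 8.99 log2 units, 5 averaged above Ccn1 and 4 above Ccn4, and 0 above Ccn2, Ccn3 or Ccn5. The base composition of the members' probes is not known here, so whether Ccn1 and Ccn4 lay above their own background was not tested. Ccn6, which the choice of members left out, ranged from 7.32 to 7.66 and was called in none of the 5 comparisons, with limma adjusted p from 0.833 upward.

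Among 14 measured receptors and cofactors through which CCN proteins act, 1 was called, the heparan sulfate proteoglycan Sdc4, which was higher by 0.56 (SE 0.13) in Tg2576 than in WT OBs at 2 months. In that comparison 0.572% of all probesets were called. At 6 months 0 of 14 were called by limma, where 1.04% of all probesets were. An unadjusted limma p under 0.05 was found for 4 of 14, where 1911 of 22206 probesets had one. These were Itgb3 (0.41), Sdc4 (0.35), Notch1 (0.30) and Igf2r (-0.47), with signs in both directions. The list median was 0.0080 at 6 months and 0.029 at 2 months. Among 18 other matricellular genes, 1 was called between genotypes, the matrix glycoprotein Fbln1, higher by 0.54 (SE 0.13) in Tg2576 OBs at 6 months. With age in WT OBs 1 of 18, Tnc or tenascin C, was called lower at -0.56, where 0.293% of all probesets were called lower.

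In the Hippo kinase and TEAD list 0 of 15 genes were called by limma in any comparison, with at most 1 gene at an unadjusted p under 0.05 in each. Of all probesets, 0.527% to 1.74% were called in each comparison. Of the 20 YAP and TAZ targets, 1, the tissue factor gene F3, was called higher in Tg2576 OBs at both ages, by 0.52 (SE 0.12) at 6 months and 0.39 (SE 0.12) at 2 months. Of all probesets 1.04% and 0.572% were called at these ages. Of 16 TGF-beta ligands, receptors and targets, 0 were called between genotypes by limma, with 3 at an unadjusted p under 0.05 at 6 months and 2 at 2 months. Over all 22206 probesets, limma counted 1911 and 1403 at that limit. Of 14 serum response factor and actin targets 1 was called, Tagln, lower with age in Tg2576 OBs (-0.54), where 0.527% of all probesets were called. Of 6 IGF binding proteins 0 were called by limma, and 0 had an unadjusted p under 0.05, in any comparison. Immediate early genes were called lower between Tg2576 and WT OBs in 3 of 19 at 6 months (list median -0.35) and in 8 of 19 at 2 months (-0.50). Of all probesets 1.04% and 0.572% were called in either direction at these ages. Fos stood at -0.61 at 6 months and -0.88 at 2 months, while Ccn1 measured 0.15 and -0.26.

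**Figure D4:**
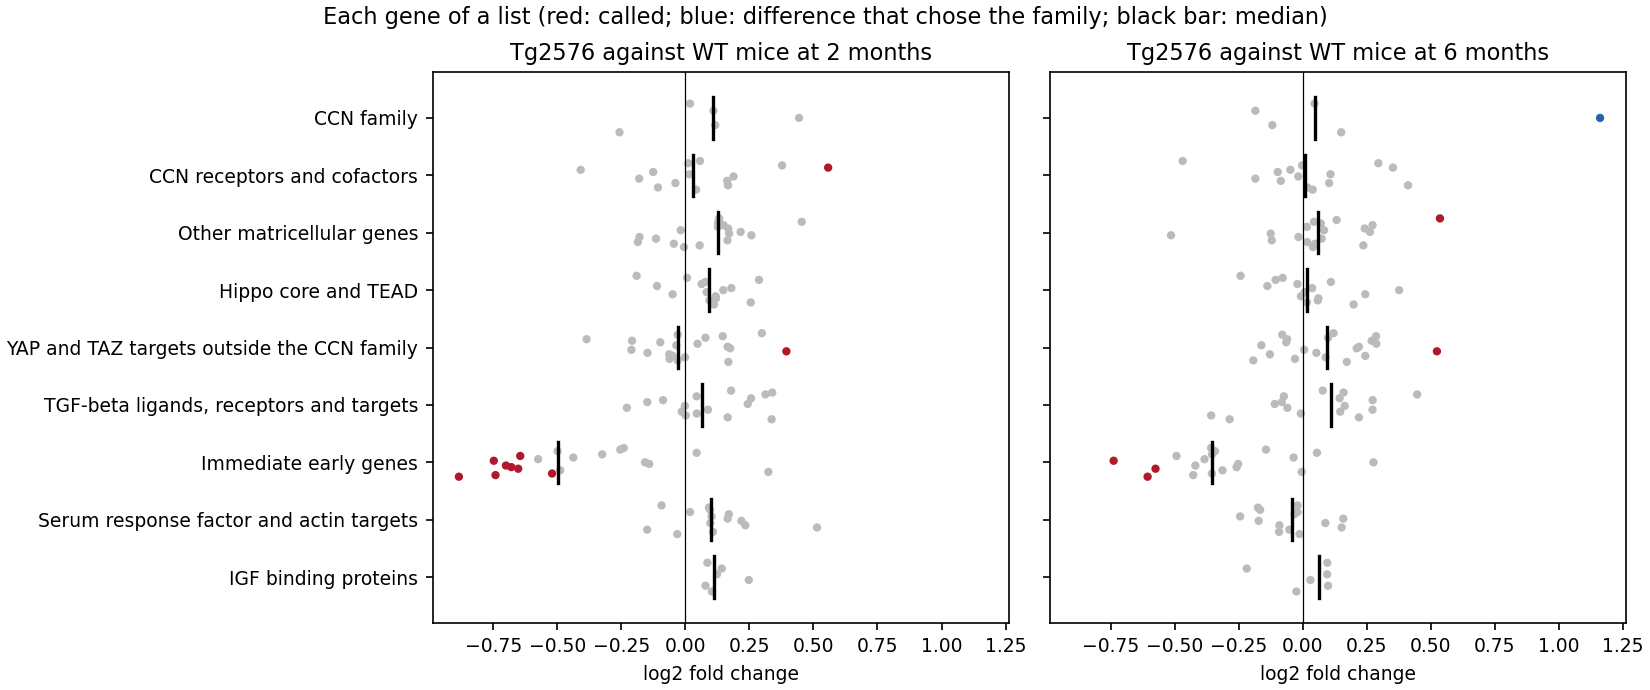
limma log2 fold change (x axis) of each gene, 1 point per gene, in the CCN family and 8 gene lists (rows), between Tg2576 and WT mice at 2 months (left) and 6 months (right); red points were called, the blue point is the difference that chose the family, and black bars are list medians. Ccn3 at 1.16 is the point farthest to the right at 6 months, and the immediate early genes lie mostly below 0 at both ages.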

How the data were processed

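The authors extracted OB mRNA, amplified and labelled it with a kit for small RNA inputs, and hybridized it to Clariom S arrays. The deposited table holds log2 intensities, made by the authors with RMA (background correction, quantile normalization and median polish), with no version named in the labels or the paper. Of 29129 probesets, 6923 control probesets were left out and 22206 tested, 19572 of them with 1 symbol in the platform annotation and 2634 with none.

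One limma 3.58.1 fit (R 4.3.3, lmFit and eBayes) to the 4 group means gave 5 comparisons: Tg2576 against WT at each age, 6 against 2 months in each genotype, and the difference between the genotype effects, which was called on p alone. Calls used the p limit of the study's methods for transcripts, with fold limits that its methods do not give for them. The code was tested on simulated data. The table has no depth, and 3 arrays per group limit the precision.

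The members and gene lists were chosen with earlier results of these data known. Named genes are the 5 members, up to 4 called genes per pathway list and comparison ranked by the size of limma's t, and for each member the 3 probesets with the highest Pearson r; Mbp, Mog, Cldn11, Cnp and uncalled list genes were named after their values were seen. Alternatives were another prior, array weights, filters, normalizations, limits, covariates, a replicate block and leaving out arrays. The oligodendrocyte, olfactory sensory neuron and interneuron covariates and a fold limit equal in both directions were added after the data were seen. Promoter sequence came from RefSeq (GRCm38.p6). Gene coordinates are not printed, since no build is stated for the arrays.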

Additional observations from a re-analysis of the deposited data

Results flagged for a closer look

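Of the pathway list genes, 1 passed limma's interaction test at an unadjusted p under 0.01, with genotype effects of opposite signs at the 2 ages. Tgfb1, a TGF-beta ligand whose signalling induces CCN2, averaged 7.30 in Tg2576 and 7.58 in WT OBs at 6 months, and 7.66 in Tg2576 and 7.32 in WT OBs at 2 months. The difference between the 2 effects was -0.62 on the log2 scale (SE 0.17, limma adjusted p = 0.842), and neither effect was called on its own. For this difference 0.779% of all probesets were called. The pathway lists held 14, 18, 15, 20, 16, 19, 14 and 6 measured genes, and Tgfb1 was the only one called. That is about what the share over all probesets would bring, so nothing is read from it about the lists. Ccn2 had -0.24 for the same quantity (SE 0.14) and did not pass the test.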

How the results depend on the processing

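The difference of Ccn3 between genotypes at 6 months kept its direction in all alternatives, between 0.50 and 1.44, and is a description, as are the counts at that age. With 3 arrays per group and adjustment over all probesets, 0 members passed an adjusted p under 0.05 in the fit to all arrays. The number of members called at 6 months was 1, and was 0 with the adjusted limit and with the oligodendrocyte covariate; at 2 months it was 0, and was 1 (Ccn3) with the interneuron covariate; leaving out single arrays kept these at 1 and 0. With age in WT OBs it was 1, and was 2 (Ccn3 and Ccn1) with a lower fold limit at the inverse of 1.3, which raised calls over all probesets to 537 against 387, 2 with array weights, 0 with hybridization controls as a covariate, without WT 6 months replicates 2 and 3, with the adjusted limit and with the oligodendrocyte or interneuron covariate, and 1 to 2 leaving out single arrays. For the difference between genotype effects it was 0, and was 1 (Ccn3) with array weights or a p limit of 0.05, and 0 to 1 leaving out single arrays. With age in Tg2576 OBs it was 0 throughout. The cause of these changes was not tested.

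Signs turned only in values that were not called. Leaving out single arrays gave -0.085 to 0.13 for Ccn5 at 2 months, -0.085 to 0.13 for the Ccn5 difference between genotype effects, -0.33 to 0.14 for Ccn3 and -0.050 to 0.092 for Ccn4 with age in Tg2576 OBs. Array weights gave 0.0040 for Ccn3 with age in Tg2576 OBs and -0.091 for the Ccn5 difference between effects. The leptomeningeal covariate gave -0.098 for Ccn5 at 2 months and -0.048 for Ccn4 with age in Tg2576 OBs. The oligodendrocyte covariate gave 0.020 for Ccn2 at 6 months, 0.20 for Ccn3 with age in Tg2576 OBs and -0.087 for Ccn2 with age in WT OBs. The olfactory sensory neuron covariate gave -0.015 for Ccn5 at 6 months, -0.013 at 2 months and -0.0016 for its difference. The interneuron covariate gave -0.032 for Ccn5 at 2 months and, for Ccn1, -0.079 at 6 months, 0.024 with age in WT OBs and -0.040 for its difference.

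Samples with the same replicate number had residual correlations from -0.27 to 0.18, above 0.1 in 4 of 18 pairs. Pairs with different numbers were not set beside them, so whether the numbers mark shared handling was not tested. The main fit did not pair samples. With the replicate number as a block the Ccn3 value at 6 months was 1.16, and the counts of called members were the same. Ccn1 dropped out where only probesets above the median level were fitted, a next-highest probeset was not run since each member has 1, and a fit to 2 groups was not run for the difference between effects.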
